A study of Mus musculus with 4 samples.

Results

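The genes of 8 proteins of the myelin sheath were followed in IMS32 cells, a spontaneously immortalized line of adult mouse Schwann cells, 1 h after the cells were moved to medium with normal or high glucose, with or without pyruvate. Members were taken by name: every array probe labelled Mbp, Pmp22, Pmp2, Mag, Prx, Cnp, Gjb1 or Mal was kept, which gave 11 probes of the 39418 used on the array, for 8 of its 31087 named genes. Mbp had 3 probes, Pmp22 had 2, and the 6 other genes had 1 each. All cultures were kept in DMEM with FBS, and 4 groups were made. Those with normal glucose of 5 mM were [Glc 5 mM/Pyr (+)], which had 1 mM pyruvate, and [Glc 5 mM/Pyr (−)], which had none, and those with high glucose of 15 mM were likewise [Glc 15 mM/Pyr (+)] and, lacking pyruvate, [Glc 15 mM/Pyr (−)]. RNA of 1 sample per group was hybridized to 1 array, all 4 on 1 slide, so that no group had a replicate. The cells were a single line grown without neurons, and no p-value can be given for a difference between 2 arrays.

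Schwann cells wrap peripheral axons and stack their membrane into compact myelin, held together by proteins such as myelin basic protein (Mbp) and peripheral myelin protein 22 (Pmp22). Around the compact sheath lie noncompact regions that carry cytoplasm and hold the gap junction protein connexin 32 (Gjb1), while myelin-associated glycoprotein (Mag) faces the axon and periaxin (Prx) lies at the outer membrane. These genes are switched on in myelinating Schwann cells under the transcription factors Sox10 and Egr2, and cultured Schwann cells without axons keep them low, with Jun among the factors that oppose them.

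On these arrays all 8 genes gave signal well above background in all 4 groups, and none of their probes differed by 2-fold, or by 1.5-fold, between any 2 groups compared. The largest difference measured above background on both arrays was at the Mbp probe farthest along the transcript, where removal of pyruvate at 15 mM glucose gave -0.47 on the log2 scale. Intensities are the scanner software's processed signals in arbitrary units, which can be followed for one probe across arrays but not from probe to probe. Differences are of log2 intensity after subtraction of each array's 75th percentile, which lay between 1598 and 1789 units. The ± after a difference is the software's own error for the pair of spots, which leaves out variation between cultures. Each member probe had 1 spot per array, so this error was not measured from repeated spots. It was nearly the same for bright and dim members, 0.20 to 0.24, except at the dimmest, Mbp at base 375, with 0.36 to 0.55. Counts of differences within or over their errors therefore apply a nearly fixed cutoff to the other probes. The log2 values of the 399 probes printed 10 times had a median SD of 0.073 to 0.078 on an array. The number of arrays limits the precision. Scaling the arrays on spike-in probes in place of the 75th percentile would shift every member by the same amount, -0.19 for removal of pyruvate at 5 mM glucose, -0.04 at 15 mM, -0.35 for high glucose with pyruvate and -0.20 without.

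Some of the probe sequences are shown here because they tell which part of a message was read. The Pmp22 probe at transcript base 668, chr11:62971862-62971921 of mm9 on the plus strand, ends just past the reading frame, and its stop codon is in capitals. The Pmp2 probe, chr3:10182422-10182481 on the minus strand, held no stop codon in 2 of its 3 frames. The 5 shorter sequences are 30-base stretches of probes that hold AATAAA or ATTAAA, hexamers known from polyadenylation signals near the 3′ end of messages, with the hexamer in capitals. They lie within the probes at chr11:62972989-62973048 (plus, Pmp22, base 1795), chr7:31684202-31684261 (minus, Mag), chr7:28304999-28305058 (plus, Prx), chrX:98580902-98580961 (plus, Gjb1) and chr2:127458976-127459035 (minus, Mal), all in mm9, and each is written 5′ to 3′ as the probe is.
Pmp22 (base 668): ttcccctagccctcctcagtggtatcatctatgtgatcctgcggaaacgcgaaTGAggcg
Pmp2: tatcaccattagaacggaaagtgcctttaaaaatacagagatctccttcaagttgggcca
Pmp22 (base 1795): aagatgcatcaaAATAAAcatcagagtaac
Mag: aaagggacatgaAATAAAtgtcctaatgac
Prx: tcaaactatgggAATAAAataattcaaaag
Gjb1: caagtgttacacATTAAAcaggattttaca
Mal: tcaatgtttcagatttttaatcATTAAAag
The probes were searched in the printed orientation only. AATAAA was in 3 of the 11 member probes and in 12.6% of all probes, and ATTAAA was in 2 of the 11 and in 4.55% of all probes. The match is a description of the letters and not of a site in use.

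Pmp22, a tetraspan protein of compact myelin, was the steadiest of the members. Its probe at base 1795 read 8764 units with pyruvate and 8617 without it at 5 mM glucose, and 7898 with pyruvate and 8454 without it at 15 mM. Its probe at base 668, which lies 1127 bases away on the genome, read 1404, 1521, 1324 and 1430 units in the same order. After scaling, the values of the first probe spanned 0.08 log2 over the 4 arrays and those of the second 0.16, which is 1.06-fold and 1.12-fold between the highest and the lowest array. In all 4 comparisons both probes differed by less than their error of 0.20, the largest value being 0.15 ± 0.20 when pyruvate was removed at 5 mM glucose. With spike-in scaling, high glucose with pyruvate gave -0.33 at base 1795 and -0.27 at base 668, beside -0.12 for Mal, so the ranking depends on the scaling.

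Pmp2, a fatty acid binding protein of peripheral myelin, gave dim signals, 49.7 units with pyruvate and 37.8 without it at 5 mM glucose, and 44.7 with pyruvate and 35.4 without it at 15 mM. Both arrays without pyruvate were below both arrays with it. On removal of pyruvate its value differed by -0.36 ± 0.23 in normal glucose and by -0.37 ± 0.24 in high glucose, while high glucose gave 0.01 ± 0.22 with pyruvate and 0.00 ± 0.24 without. In the limma fit with a pyruvate term and a glucose term, the pyruvate coefficient of Pmp2 was -0.36 with an adjusted p of 0.987. That fit called no probe of the whole array, so its outcome says nothing particular about Pmp2. The value depended on the background correction, since normexp with an offset of 50 gave 0.0029 in place of -0.36 at 5 mM glucose and -0.23 in place of -0.37 at 15 mM.

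Mag, an adhesion protein of the membrane facing the axon, read 151 units with pyruvate and 128 without it at 5 mM glucose, and 111 with pyruvate and 126 without it at 15 mM. Its highest array was the one with normal glucose and pyruvate, and the widest difference was -0.28 ± 0.21 for high glucose with pyruvate, which became -0.07 with normexp and -0.63 with spike-in scaling. Without pyruvate the same change of glucose gave 0.08 ± 0.21. Prx, a scaffold protein of Schwann cells that anchors the sheath to the basal lamina, read 2046, 2024, 1997 and 1771 units in the same order, lowest in [Glc 15 mM/Pyr (−)]. Its scaled values spanned 0.20 log2, and all 4 of its differences were within their errors.

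Cnp encodes a phosphodiesterase that keeps cytoplasmic channels open within myelin. Its probe, chr11:100442617-100442676 on the plus strand of mm9, read 365 units with pyruvate and 463 without it at 5 mM glucose, and 405 with pyruvate and 365 without it at 15 mM. Relative to [Glc 5 mM/Pyr (+)] it was higher by 0.38 ± 0.20 without pyruvate and by 0.31 ± 0.20 with high glucose. At 15 mM glucose without pyruvate it differed by -0.18 ± 0.20 from the array with pyruvate, and by -0.25 ± 0.20 from normal glucose. The value for high glucose with pyruvate became -0.03 when the arrays were scaled on spike-in probes.

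Gjb1, whose product forms the gap junctions through which small molecules cross the layers of the sheath, read 481 units with pyruvate and 382 without it at 5 mM glucose, and 315 with pyruvate and 345 without it at 15 mM. The array with normal glucose and pyruvate stood above the other 3. Gjb1 was the member with the largest difference for high glucose with pyruvate, -0.45 ± 0.20, and it differed by -0.29 ± 0.20 on removal of pyruvate at 5 mM glucose. The 2 other differences, 0.10 ± 0.20 for removal of pyruvate at 15 mM and -0.05 ± 0.20 for high glucose without pyruvate, were within their errors. The comparisons with [Glc 5 mM/Pyr (+)] share that one array. For high glucose with pyruvate the alternatives ran from -0.79 with spike-in scaling, which is past 1.5-fold, to -0.31 with normexp.

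Mal, a membrane protein of the lipid rafts of myelin membranes, read 947 units with pyruvate and 1010 without it at 5 mM glucose, and 990 with pyruvate and 1179 without it at 15 mM. It was highest in [Glc 15 mM/Pyr (−)] and positive in all 4 comparisons, from 0.13 ± 0.20 for removal of pyruvate at 5 mM to 0.32 ± 0.20 for high glucose without pyruvate. With spike-in scaling, the values for removal of pyruvate at 5 mM and for high glucose with pyruvate changed sign, to -0.06 and -0.12.

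**Figure D1:**
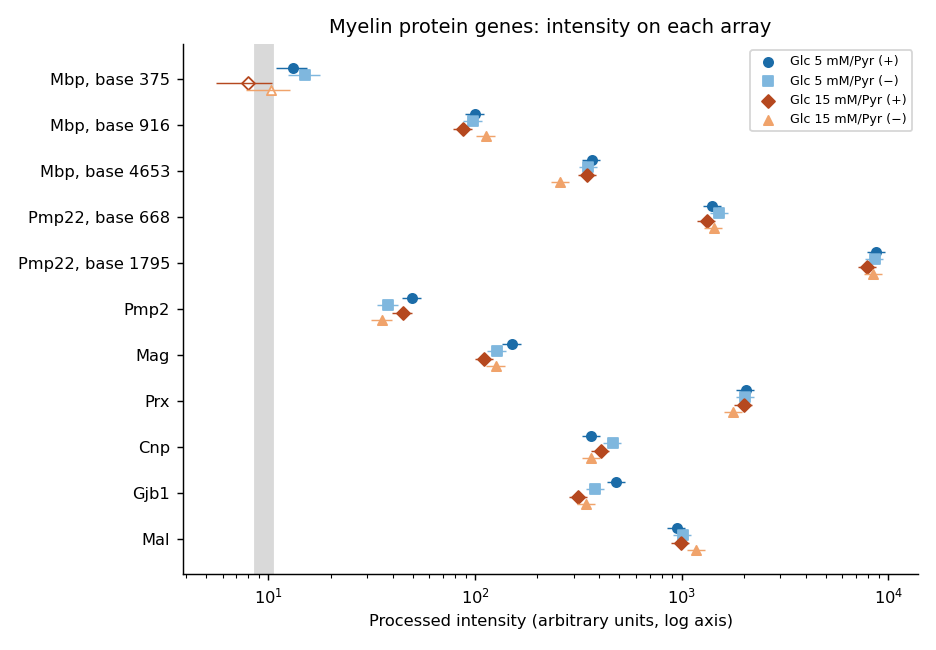
Processed intensity (log axis) of each of the 11 probes on the 4 arrays, with bars for the error given by the scanner software, open symbols where the spot was not well above background, and a grey band from 8.60 to 10.5 units for the lowest signals well above background. Within a probe the arrays lie close together, and the Mbp probe at base 375 alone reaches the band; levels of different probes are not comparable.

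Mbp, the cytoplasmic protein that holds the inner faces of compact myelin together, was read by 3 probes that differed from each other. The probe at base 375, chr18:82691469-82691528 of mm9 on the plus strand, gave 13.1 units with pyruvate and 15.0 without it at 5 mM glucose. At 15 mM it gave 7.97 and 10.3 units, both too close to background to count as measured. It is 36460 bases from the probe at base 4653, and golli-mbp, the name of a longer transcription unit that includes Mbp, is among the RefSeq synonyms of the gene. Its level at 15 mM was taken as the higher of the array's lowest signal well above background and the probe's own reading. With pyruvate that gave a level at least 1.12-fold lower in high glucose, where the plain difference was -0.56 ± 0.50. Without pyruvate the reading was the higher, so the 1.37-fold lower level there is the plain difference, -0.46 ± 0.43. These values did not hold with normexp, where the differences were 0.20 and -0.09, and the probe was above the 99th percentile of the negative control spots on 0 of the 4 arrays. In the limma fit its glucose coefficient of -0.51 had an adjusted p of 0.773.

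The Mbp probe at base 916, for which the array design gives no genome position, read 100 units with pyruvate and 97.8 without it at 5 mM glucose, and 87.2 with pyruvate and 113 without it at 15 mM. The probe at base 4653, chr18:82727929-82727988 on the plus strand, read 367, 352, 350 and 259 units in the same order. After scaling, [Glc 15 mM/Pyr (−)] was the highest array for base 916 and the lowest for base 4653. Removal of pyruvate at 15 mM glucose gave 0.34 ± 0.21 at base 916 and -0.47 ± 0.20 at base 4653, and high glucose without pyruvate gave 0.30 ± 0.21 and -0.35 ± 0.20. Under all 6 other scalings and sources of the values the signs at both probes were kept in these 2 comparisons, but not the sizes. At base 916 the difference was 0.10 with normexp for removal of pyruvate, and 0.10 with spike-in scaling and 0.17 with normexp for high glucose, all within the error.

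The distance between the Mbp probes was set beside that of other genes. Of 4399 genes with at least 2 probes well above background on all arrays, none with probes placed on different chromosomes, the share whose probes' differences lay at least 1.5-fold apart was 4.02% for removal of pyruvate at 5 mM glucose, 7.8% at 15 mM, 4.5% for high glucose with pyruvate and 8.64% without pyruvate. Mbp was among those genes in the comparisons of [Glc 15 mM/Pyr (−)], with 0.81 log2 between its probes for removal of pyruvate and 0.65 for high glucose, and not in the 2 others, with 0.03 and 0.13. With normexp its probes were 0.52 and 0.43 apart in those comparisons, under 1.5-fold, so that Mbp was then not among them. The probes of Pmp22 lay at most 0.14 apart in each comparison, and the median over all these genes was 0.12 to 0.13. Which transcripts of Mbp each probe reads was not tested.

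**Figure D2:**
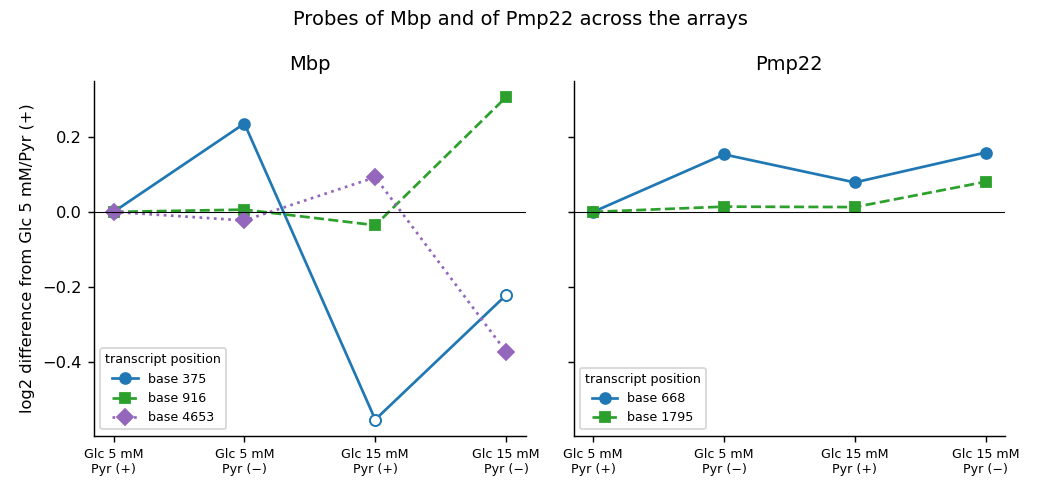
The log2 difference from [Glc 5 mM/Pyr (+)] of the probes of Mbp and Pmp22 on each array, with one line per probe, named by transcript position, and open symbols where a spot was not well above background. The Mbp probes at bases 916 and 4653 part in [Glc 15 mM/Pyr (−)], with the first above 0 and the second below, while both Pmp22 probes stay within 0.16 of 0.

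Removal of pyruvate at 5 mM glucose left 0 of the 11 member probes 2-fold apart, against 1.17% of the probes well above background in both groups. With probes above background in 1 group alone counted by their bounds, the share of all 30762 probes was 2.66% at 2-fold and 5.38% at 1.5-fold, with 0 of the 11 member probes at either. Of the 11, 7 were higher and 4 lower, with a median of 0.01 beside -0.02 over all probes measured on both arrays. Only Cnp, Gjb1 and Pmp2 differed by more than their error, and none by more than 2 errors.

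At 15 mM glucose, removal of pyruvate left 0 of the 10 member probes measured in both groups 2-fold apart, against 2.1% of such probes, and Mbp at base 375 was measured in neither. With bounds counted, the share of all probes was 4.17% at 2-fold and 9.71% at 1.5-fold, with 0 of the 10 at either. There 6 were higher and 4 lower, with a median of 0.07 beside 0.03 over all probes. Mbp at base 4653 was the 1 probe that differed by more than 2 errors.

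High glucose in the presence of pyruvate left 0 of the 10 member probes measured in both groups 2-fold apart, against 0.968% of such probes. With bounds counted, Mbp at base 375 included, 0 of 11 were past 2-fold or 1.5-fold, against 2.5% and 5.29% of all probes. Of the 10, 7 were higher and 3 lower, with a median of 0.05 beside -0.02 over all probes, and Gjb1 was the 1 probe over 2 errors. High glucose in the absence of pyruvate left 0 of 10 such probes 2-fold apart, against 2.4%, and with bounds 0 of 11 past 2-fold or 1.5-fold, against 4.37% and 10.4% of all probes. The median was 0.00 beside 0.03, with 6 higher and 4 lower, and none over 2 errors. With so few member probes, a count of 0 lies near these background shares and is not a result about the members.

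The spread of the array depends on brightness, so each member was also set beside the tercile of all probes of its own brightness. Mbp at base 916, Pmp2 and Mag were in the dim tercile, Pmp22 at base 1795 in the bright tercile, and the 6 others in the middle tercile. Cnp and Gjb1 lay outside the central 95% of the middle tercile, which ran from -0.28 to 0.30 for removal of pyruvate at 5 mM and from -0.37 to 0.25 for high glucose with pyruvate. In the comparisons of [Glc 15 mM/Pyr (−)] none of the 10 probes lay outside, and the middle tercile ran from -0.70 to 0.48 for removal of pyruvate and from -0.75 to 0.43 for high glucose.

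**Figure D3:**
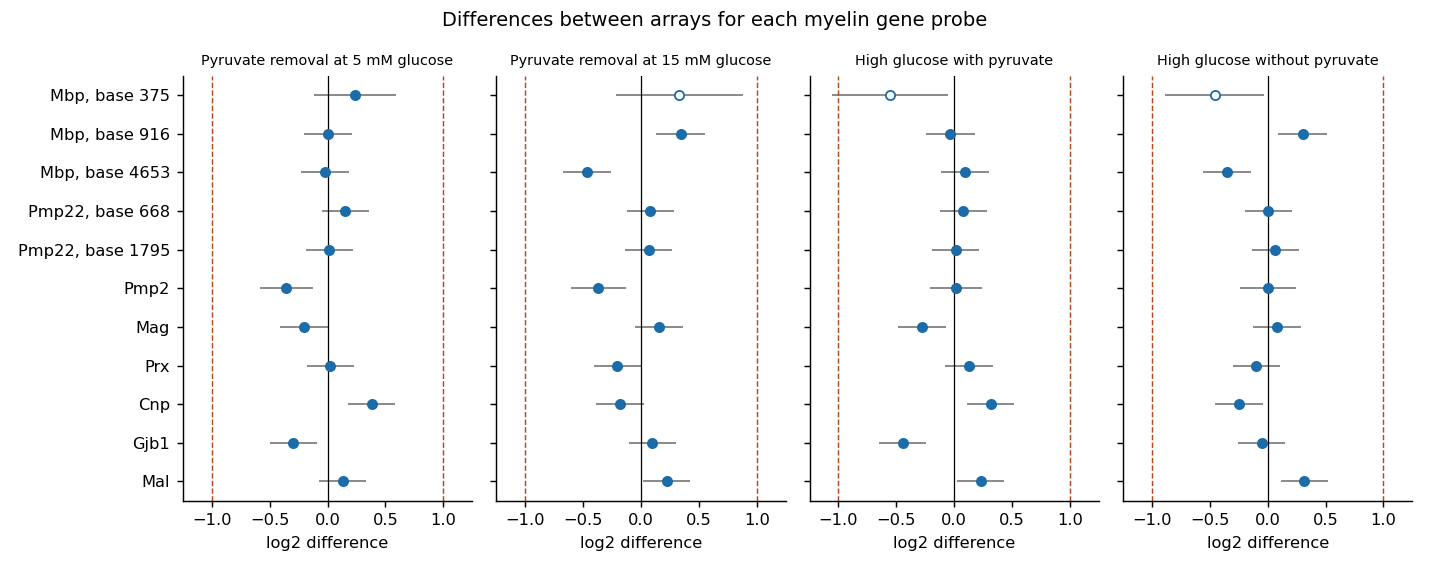
The log2 difference of each member probe in the 4 comparisons, with bars for the error of the pair of spots, open symbols where a spot was not well above background in 1 or both groups, and dashed lines at 2-fold. All points lie inside the dashed lines, and the bars of most cross 0.

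**Figure D4:**
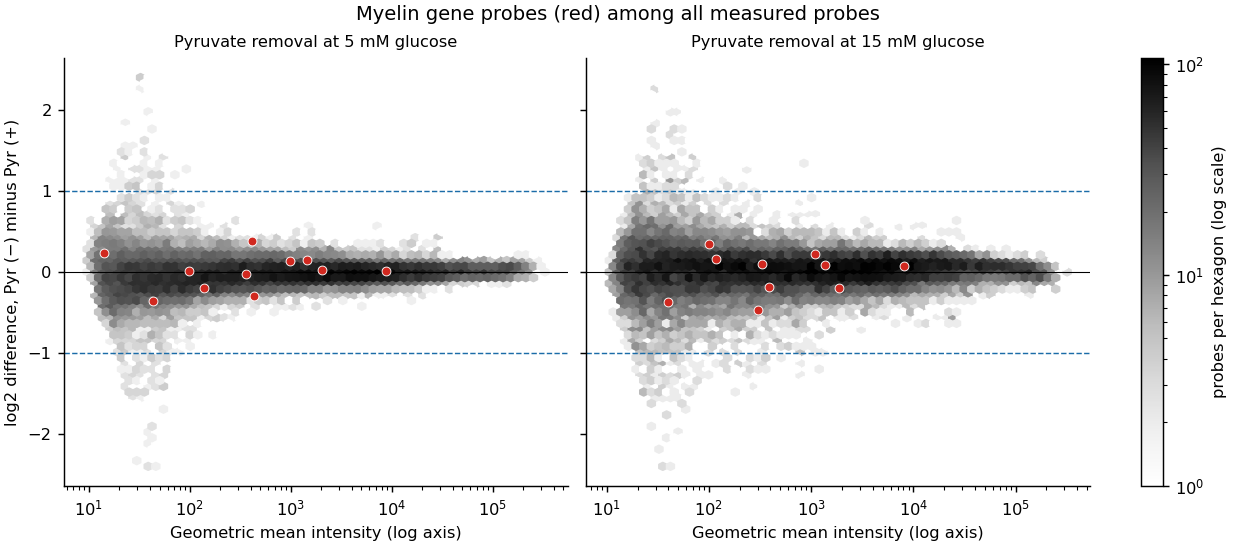
The log2 difference on removal of pyruvate against the geometric mean intensity (log axis) for all probes well above background in both groups (grey, darker where more probes fall, values beyond 2.4 drawn at 2.4) and for the member probes (red), with dashed lines at 2-fold. The grey cloud is wider at 15 mM glucose, where the middle tercile of probes has an SD of 0.29 against 0.15 at 5 mM, and the members lie within it.

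The limma fit with a pyruvate and a glucose term, which has 1 residual degree of freedom and takes any dependence of one effect on the other as error, called 0 of the 11 member probes for either term. It called 0% of all 31275 probes for pyruvate and 0% for glucose, with 1081 and 1491 probes at an unadjusted p under 0.05, among them 1 member probe for each term. The lowest adjusted p of a member was 0.987 for pyruvate and 0.773 for glucose. With so little to estimate the spread from, the absence of calls is a limit of the design and says nothing about the members.

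Genes that act with the members in building and controlling myelin were taken as lists, chosen with earlier results of these data known. Of 11 other structural genes of myelin, 10 were well above background on all arrays, and 0 of their probes were 2-fold apart in any comparison. Their median difference was -0.02 for removal of pyruvate at 5 mM glucose and 0.08 at 15 mM, and -0.05 and 0.03 for high glucose with and without pyruvate. Of 6 enzymes of myelin lipids, 4 were above background on all arrays, Fa2h, the fatty acid 2-hydroxylase, was above it on none, and 0 probes were 2-fold apart.

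All 11 activators of myelin genes and all 6 inhibitors had at least 1 probe above background on all arrays. Sox10, which drives Schwann cell identity and myelin genes, read 5413, 5667, 4837 and 5409 units in the order given for the members. Egr2, the main activator of myelin genes, named here after its values were seen, read 17165 units in [Glc 5 mM/Pyr (+)] and 11169, 12990 and 10976 on the other arrays, and differed by -0.58 on removal of pyruvate at 5 mM glucose and by -0.27 at 15 mM. Pou3f2, a POU factor of promyelinating cells, was the 1 activator past 2-fold above background in both groups, at 17.5 units with pyruvate and 41.9 without it at 5 mM glucose, a difference of 1.29. Another of its probes went the other way, from 20.6 units to 9.66, where it was not well above background.

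Among the inhibitors no probe was 2-fold apart, and 3 genes were highest in [Glc 15 mM/Pyr (−)]. Jun read 37973, 40980, 37675 and 55669 units, a difference of 0.53 on removal of pyruvate at 15 mM and of 0.15 at 5 mM. Id2 and Id4, named here after their values were seen and known as inhibitors of basic helix-loop-helix factors, differed by 0.66 and 0.48 on removal of pyruvate at 15 mM glucose and by 0.04 and -0.06 at 5 mM. The median of all 8 inhibitor probes was -0.10 at 15 mM, since the probes of the other inhibitors were lower there.

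**Figure D5:**
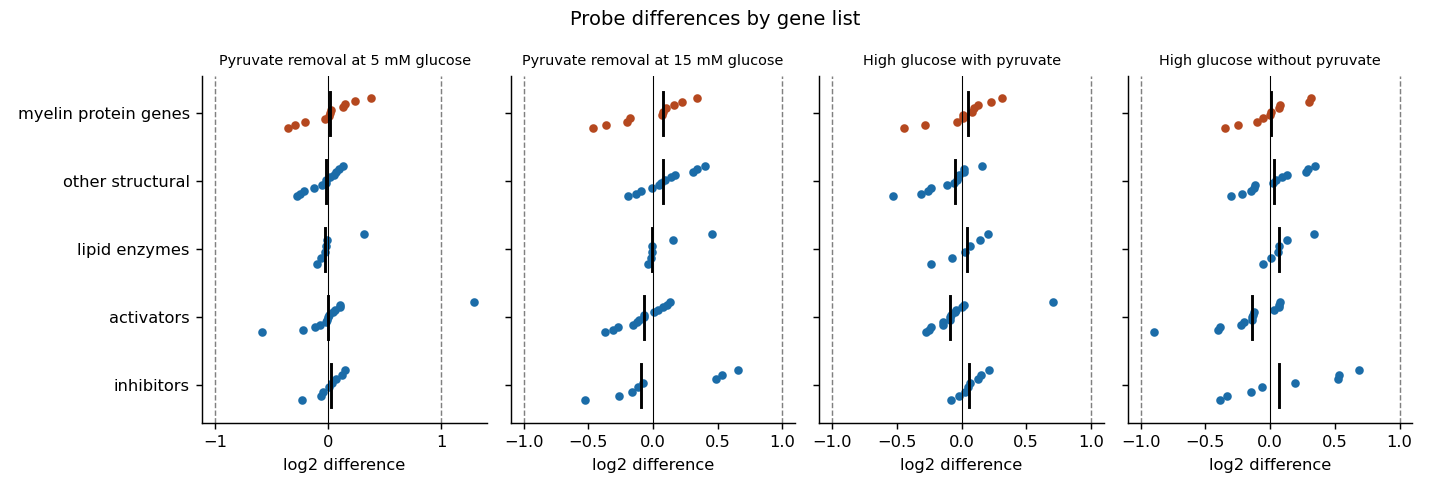
The log2 difference of single probes (points) in the 4 comparisons for the myelin protein genes (red) and 4 lists of related genes (blue), with a bar at each median and dashed lines at 2-fold. All medians lie between -0.14 and 0.08, and the 1 point beyond 2-fold is a dim probe of Pou3f2.

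The labelled cell type was checked against markers. All 12 Schwann cell markers had at least 1 probe well above background on all arrays. S100b read 3519, 3913, 3552 and 4319 units and Ngfr, the low-affinity neurotrophin receptor of nonmyelinating and immature Schwann cells, 17398, 18038, 14823 and 15496. Erbb3 was dim, at 22.2, 21.8, 16.4 and 15.6 units. Those readings were below the 99th percentile of the negative control spots, 41.6, 49.2, 33.9 and 21.7 units. Of the Gfap probes, 1 was well above background on all arrays, at 52.9 to 76.4 units, and the others on 1 array and on 0. The level of the Schwann cell list was summed over the brightest probe of each gene, relative to the 75th percentile. It ran from 52.2 to 56.6 over the arrays, and the same sum for the member genes ran from 7.36 to 7.68. Such sums can be followed across arrays but not from list to list, since each rests on other probes. Markers of oligodendrocytes, which share several of the members, summed to 0.249 to 0.309, with 3 of 5 above background on all arrays and Opalin and Myrf on none. That sum rested mainly on Mog, which read 358 to 499 units, while Mobp read at most 22.7 and Olig2 at most 19.8. Fibroblast markers, which include collagens that Schwann cells also make, summed to 57.9 to 61.4 (6 of 7), macrophage markers to 1.45 to 1.94 (5 of 5), endothelial markers to 2.65 to 3.19 (2 of 4, Cdh5 on none) and melanocyte markers to 0.210 to 0.236 (3 of 4, Dct on none). The fibroblast sum rested mainly on Col1a2, which read 85784 to 91960 units. Col3a1 read 9136 to 11110 units, Dcn 871 to 962 and Col1a1 786 to 928. Thy1 read 40.3 to 47.8 and Pdgfra 14.6 to 19.3, and Lum was well above background on 1 array. The endothelial sum rested mainly on 1 Kdr probe at 4089 to 5496 units, while another Kdr probe read 9.44 to 13.2. Pecam1 read 117 to 202 units and was well above background on all arrays.

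Neuron markers summed to 5.28, relative to the 75th percentile, with pyruvate and 4.86 without it at 5 mM glucose, and 3.85 with pyruvate and 3.48 without it at 15 mM, with 3 of 5 above background on all arrays and Syt1 on none. Snap25, a synaptic protein and the bright probe of the list, named here after its values were seen, read 9340, 8354, 6059 and 5470 units in that order, a difference of -0.46 for high glucose with pyruvate and -0.52 without. Dim probes of Elavl3, Nefl and Rbfox3 were past 2-fold higher in [Glc 15 mM/Pyr (−)] in at least 1 comparison. Elavl3 was higher by 1.39 on removal of pyruvate, and Nefl and Rbfox3 by 1.22 and 1.18 against [Glc 5 mM/Pyr (−)]. That Rbfox3 probe was well above background on 3 arrays. The other Rbfox3 probes, well above it on 0 arrays and on 1 array, were not higher there, with differences of -1.56 and -0.02. The part of other cell types in the members' values was not tested, and fewer cells of a type cannot be told apart from less RNA per cell.

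Finally, the genes whose pattern over the 4 arrays was most like that of Mbp at base 4653, the member probe of largest range among those above background throughout, were Tmem201, AA645497 and Dlg5. Their distances from it, computed on log2 values centred on their mean, were 0.01, 0.03 and 0.03, among 23154 probes of other genes compared over 4 arrays. With 4 values per probe and so many probes, whether such small distances are unusual was not tested.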

How the data were processed

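For 4 IMS32 samples, 1 per condition, Cy3-labelled RNA was put by the authors on a one-colour Agilent whole mouse genome array, with probe positions in mm9. Per the file headers, Agilent Feature Extraction 11.5.1.1 made the deposited intensity values (processed signal, background already subtracted). The deposited value table holds a ratio, the same signal divided by a constant per array, and matched it to a relative deviation of at most 5.6e-07. GeneSpring settings are not given in the sources used here.

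Control spots and 11 probes flagged on every spot of an array were left out, repeated spots averaged, and log2 intensity taken minus each array's 75th percentile. Between 28467 and 30341 of 39418 probes were well above background per array, and 0 spots were saturated. A probe below background in 1 condition was set there at the higher of its reading and the array's lowest signal well above background (8.60 to 10.5 units). Differences between 2 arrays have no test. limma 3.58.1 in R 4.3.3 fitted pyruvate and glucose over all 4 arrays with Benjamini-Hochberg adjustment at 0.05, after the script was tested on simulated data, where it made calls at a low spread but none at the spread of these arrays. The 2 list probes placed by the design on another chromosome than their gene were left out of the lists after their values were seen. The named genes are all members, list genes past 2-fold above background in both conditions (at most 4 per list and comparison), Sox10, S100b, Ngfr, Jun, 1 further gene that is not reported here, and the 3 nearest patterns. Outside this rule, Erbb3, Gfap, Mog, Mobp and Olig2 were named after their values were seen. Egr2, Id2, Id4, Snap25, Col1a2, Col1a1, Col3a1, Dcn, Lum, Thy1, Pdgfra, Kdr and Pecam1 were also named after their values were seen. So were the list genes above background on no array. The members and lists were chosen with earlier results of these data known. Alternatives were other scalings, normexp, the value table, filters on dim probes, the brightest probe per gene, a 1.5-fold threshold, other detection rules and an intensity trend in the fit. As 1 slide holds all arrays, it could not be a block.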

Additional observations from a re-analysis of the deposited data

How the results depend on the processing

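Of 353 values recomputed under the alternatives, 297 stayed within the tolerance and 56 moved. For a difference the tolerance was 0.11 log2, wider than the median SD of repeated spots on an array, 0.073 to 0.078. No member probe passed 2-fold under any of them or 1.5-fold with that threshold on the usual scaling. The 8 spike-in probes account for 36 of the moves. Scaled on them, the median of all probes was -0.21 for removal of pyruvate at 5 mM glucose, -0.01 at 15 mM, -0.36 for high glucose with pyruvate and -0.16 without, and the median of the member probes was -0.17 at 5 mM, -0.30 for high glucose with pyruvate and -0.20 without. With the brightest probe of each gene only, the median for removal of pyruvate at 15 mM was -0.057 in place of 0.07, with Mbp then read at base 4653 alone. Of 44 single differences, 23 kept their sign under all 6 other scalings and sources, among them those of Gjb1 and of Mbp at base 4653 in the comparison where each was largest. Counted as above the 99th percentile of negative control spots on all arrays, 7 genes were detected in place of 8, without Pmp2. No paired analysis was possible because each group has 1 array. For the same reason no array could be left out, and the dim probes, Pmp2 and Mbp at base 375 above all, lie closest to background.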
